A study of Mus musculus with 21 samples.

Results

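The interferon regulatory factors were followed through 21 bulk RNA-seq libraries of mouse skin and skin-draining lymph nodes (SDLNs). The 7 genes *Irf1*, *Irf2*, *Irf3*, *Irf4*, *Irf5*, *Irf7* and *Irf8* were taken by symbol from the 55487 gene rows of each tissue's table, with *Irf9* left out. All 7 had enough counts to be tested in both tissues, among 19101 genes tested in skin and 16173 in SDLNs. *Ifnk* TG mice carry an extra *Ifnk* gene, which encodes interferon-κ, under the keratin 14 promoter, which is active in basal keratinocytes; the line was moved from C57Bl/6 onto BALB/c by repeated backcrossing, and WT mice were BALB/c. Skin came from mice of 12 months and was not irradiated. It comprised 3 WT libraries (samples 8, 9 and 10), 2 of nonlesional *Ifnk* TG skin (samples 2 and 3) and 4 of lesional *Ifnk* TG skin (samples 4 to 7). Inguinal SDLNs, for which the labels give no age, were sequenced as 3 libraries in each of 4 groups: WT without UVB (samples 1 to 3), *Ifnk* TG without UVB (samples 4 to 6), WT after UVB (samples 7 to 9) and *Ifnk* TG after UVB (samples 10 to 12). Mice had their backs shaved, UVB was given at 250 mJ/cm2 on 3 days a week for 2 weeks, and nodes were taken after a further 2 weeks, so acute changes are outside the sampling. The labels give neither the sex nor the mouse behind each library, and the p-values below measure the spread between these libraries.

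Interferon regulatory factors are transcription factors that share a DNA-binding domain which reads GAAA repeats. *Irf3* and *Irf7* are activated by phosphorylation downstream of nucleic acid sensors and switch on type I interferon genes, and *Irf7* is itself a classical interferon-induced gene. *Irf1* is induced most strongly by interferon-γ and drives antigen presentation genes, whereas *Irf2* occupies the same elements and opposes it. *Irf5* acts downstream of Toll-like receptors on inflammatory cytokine genes and is a lupus susceptibility gene in humans. *Irf4* and *Irf8* are mainly made in hematopoietic cells, where *Irf4* serves activated lymphocytes, plasma cells, some macrophages and dendritic cells as well as melanocytes, and *Irf8* serves B cells, monocytes and dendritic cells.

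The genes lie on 5 chromosomes of the GRCm38 build (GENCODE M21): *Irf1* (ENSMUSG00000018899) at chr11:53770014-53778374, *Irf2* (ENSMUSG00000031627) at chr8:46739732-46847458, *Irf3* (ENSMUSG00000003184) at chr7:44997648-45002848, *Irf4* (ENSMUSG00000021356) at chr13:30749226-30766976, *Irf5* (ENSMUSG00000029771) at chr6:29526625-29541871, *Irf7* (ENSMUSG00000025498) at chr7:141262706-141266481 and *Irf8* (ENSMUSG00000041515) at chr8:120736358-120756694. *Irf7* is on the minus strand and the others are on the plus strand. Exons of 4 members overlap those of a gene on the opposite strand: *Irf1* shares 135 bases with *Gm17334*, *Irf3* 88 with *Bcl2l12*, *Irf5* 411 with *Tnpo3* and *Irf7* 45 with *Phrf1*. Whether the counting used strand is not given in the sources used here, so reads from those bases may belong to either gene.

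The 250 bases upstream of the RefSeq start site (GRCm38.p6) were searched on both strands for 3 motifs through which interferon and its factors act. These were the interferon-stimulated response element (GAAANNGAAA), the ETS-IRF composite element (GGAANNGAAA) and the gamma-activated sequence (TTCNNNGAA), which occur in 2.98%, 2.30% and 7.02% of the 32851 mouse promoter windows of that length. All 7 members had a window, and matches were found in *Irf1*, *Irf2* and *Irf8*. The 3 windows with a match are shown with *Irf7*, whose levels varied most between libraries, with matched bases in capitals and each window written 5′ to 3′ towards the start site:
Irf1, chr11:53769764-53770013 (plus strand): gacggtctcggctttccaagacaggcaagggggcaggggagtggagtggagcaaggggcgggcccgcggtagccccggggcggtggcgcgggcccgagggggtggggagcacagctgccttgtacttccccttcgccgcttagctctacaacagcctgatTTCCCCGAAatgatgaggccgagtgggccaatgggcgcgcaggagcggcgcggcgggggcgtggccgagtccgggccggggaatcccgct
Irf8, chr8:120736108-120736357 (plus strand): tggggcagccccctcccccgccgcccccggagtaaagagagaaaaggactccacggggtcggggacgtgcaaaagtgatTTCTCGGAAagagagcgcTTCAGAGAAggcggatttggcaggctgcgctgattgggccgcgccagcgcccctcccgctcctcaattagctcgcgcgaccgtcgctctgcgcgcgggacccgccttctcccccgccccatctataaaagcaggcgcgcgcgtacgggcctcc
Irf2, chr8:46739495-46739744 (plus strand): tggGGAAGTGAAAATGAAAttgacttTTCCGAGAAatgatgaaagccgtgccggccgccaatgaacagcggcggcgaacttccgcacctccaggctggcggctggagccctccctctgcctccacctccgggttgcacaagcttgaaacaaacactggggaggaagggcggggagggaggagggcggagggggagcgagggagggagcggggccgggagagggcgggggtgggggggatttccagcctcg
Irf7, chr7:141266425-141266674 (minus strand): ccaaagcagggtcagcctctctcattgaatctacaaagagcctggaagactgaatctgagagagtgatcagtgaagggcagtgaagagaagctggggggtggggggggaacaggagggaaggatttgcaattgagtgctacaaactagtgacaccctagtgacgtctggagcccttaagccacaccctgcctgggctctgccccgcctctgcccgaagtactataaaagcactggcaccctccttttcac
*Irf1* holds 1 gamma-activated sequence, TTCCCCGAA, which begins 90 bases before the start site. *Irf8* holds 2, TTCTCGGAA and TTCAGAGAA. *Irf2* holds GGAAGTGAAA and GAAAATGAAA, which overlap in the long run of capitals, and the separate TTCCGAGAA. In *Irf3*, *Irf4*, *Irf5* and *Irf7* none of these letters was found in the window. A match describes the sequence and does not show that a factor binds there.

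Total counts per library ranged from 40499078 to 56511276 in skin and from 27599809 to 36428435 in SDLNs, and every member had at least 247 counts in every library. In skin the *Ifnk* gene itself had 14, 11, 5 and 8 counts in the 4 lesional libraries, 6 and 0 in the nonlesional ones and 0 in every WT library. All 12 SDLN libraries had 0 *Ifnk* counts, which allows up to 3 counts per library. Skin libraries also differed in tissue makeup: the summed CPM (counts scaled to library size, as is usual for counts-per-million values) of 6 hair shaft keratins was 1283 to 4742 in lesional libraries and at most 1.15 elsewhere, that of 6 skeletal muscle genes was 20.1 to 6074 against 20240 or more, and that of 6 melanocyte genes was 102 to 594 against at most 18.9. *Xist* was near 0 in lesional sample 6 and nonlesional sample 3 (6 and 13 counts) and between 3297 and 9353 in the other 7. Both transgenic groups thus mixed the 2 patterns, and no WT skin library was near 0. In the nodes *Xist* was between 3 and 42 counts. An alternative fit took *Xist* as a covariate. The part of tissue makeup in the results was not tested. In bulk tissue, fewer cells of a type and less RNA per cell cannot be told apart.

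Levels are compared between members per kilobase of exon (RPKM, the CPM divided by exon length in kilobases). In WT skin, *Irf7* was highest at a mean of 11.2 ± 5.03 RPKM (SD, n = 3), followed by *Irf5* at 9.76 ± 1.69, *Irf3* at 6.51 ± 0.249, *Irf1* at 6.22 ± 0.242, *Irf2* at 3.77 ± 0.0590, *Irf4* at 3.46 ± 1.41 and *Irf8* at 2.76 ± 0.391. Among neighbours in that order, only *Irf5* over *Irf3* and *Irf1* over *Irf2* had ranges that did not overlap. In lesional skin *Irf7* (18.5 ± 6.77, n = 4) and *Irf1* (15.2 ± 9.98) led the order and *Irf4* was lowest at 1.55 ± 0.527, below every library's *Irf2*. In SDLNs *Irf1* led in every group, from 54.1 ± 6.78 RPKM in WT nodes without UVB to 78.3 ± 7.57 in WT nodes after UVB (n = 3 each). *Irf8* was second in 3 of the 4 node groups, at 40.2 ± 6.59 to 41.1 ± 2.14 RPKM, and came after *Irf7* in WT nodes without UVB, at 34.1 ± 3.12. In those nodes only *Irf8* over *Irf5* separated neighbours in the order, and in the other 3 groups *Irf1* lay above *Irf8* without overlap. The other members lay between 11.3 and 35.2 RPKM in the nodes, and *Irf7* moved from second place in WT nodes without UVB to last in *Ifnk* TG nodes without UVB. With coding length in place of exon length *Irf2* moved up, to second in WT skin and to the place behind *Irf1* and *Irf8* in every node group, and in lesional skin *Irf1* passed *Irf7*.

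**Figure D1:**
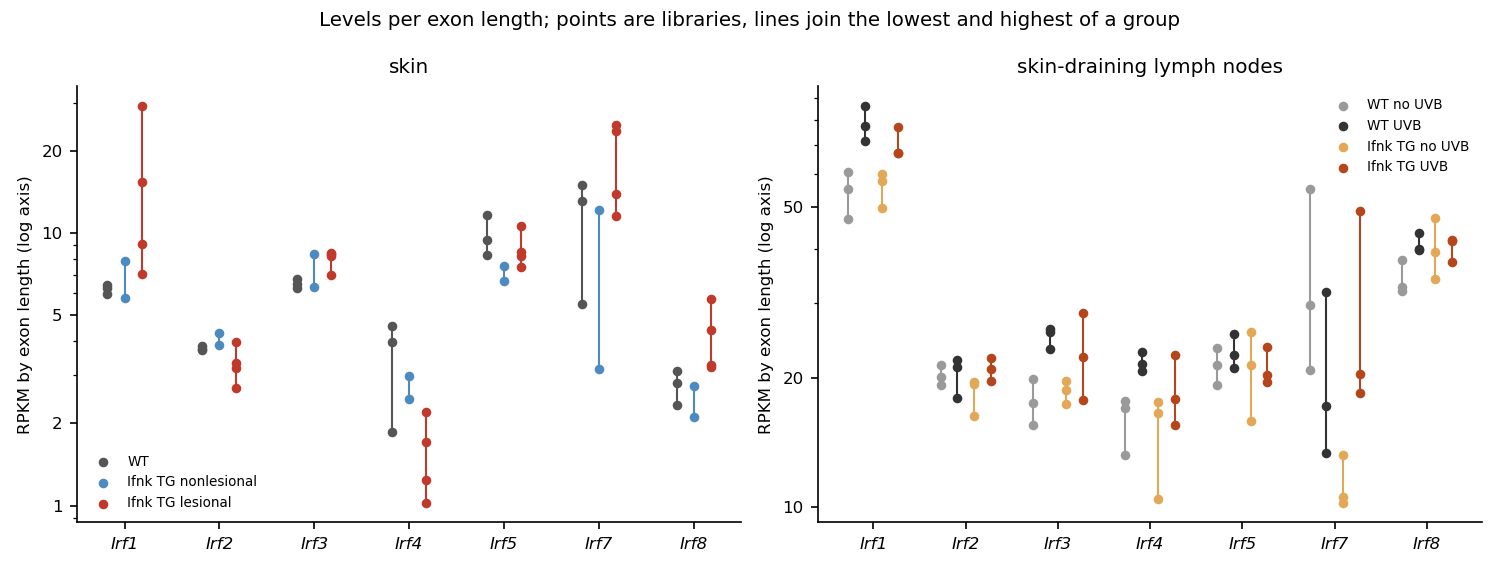
Levels of the 7 genes in RPKM by exon length on a log axis, in skin (left) and SDLNs (right); each point is 1 library, colors mark groups and lines join the lowest and highest library of a group. In the nodes *Irf1* and *Irf8* stood above most members, and *Irf7* spread most, from 10.2 to 55.1 RPKM.

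The first comparison asked how the factors differ between lesional *Ifnk* TG skin and WT skin. *Irf4* fell, to 0.448 of the WT level, and was the only member called of 7, where 43.1% of all tested genes were called, 23.0% higher and 20.2% lower. *Irf4* stood at 9.15, 22.2 and 19.5 CPM in WT skin, at 14.7 and 12.1 in nonlesional skin and at 8.41, 6.09, 10.8 and 5.03 in lesional skin. WT sample 8 lay among the lesional libraries, so the 2 groups overlapped. The log2 fold change was -1.16 with an SE of 0.34 and an adjusted p of 0.0244 (edgeR quasi-likelihood test, Benjamini-Hochberg over all tested genes). It was no longer called without lesional sample 5 (adjusted p = 0.0543) or 7 (0.0507), or without WT sample 9 (0.0919) or 10 (0.0786). Against nonlesional skin, *Irf4* was 0.567 times as high in lesional skin, with no overlap between the groups and an adjusted p of 0.147.

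Macrophage marker levels and *Irf4* were highest in the same WT skin libraries. The summed CPM of *Adgre1*, *Csf1r*, *C1qa*, *C1qb*, *Cd68* and *Mrc1* was 381, 971 and 804 in the WT libraries, 376 and 522 in nonlesional skin and 472, 229, 656 and 369 in lesional skin. WT samples 9 and 10 were thus highest for both *Irf4* and these markers, and WT sample 8 lay within the lesional range for both, while nonlesional sample 2 was the highest transgenic library for *Irf4* at a lower marker sum than sample 3. None of the 6 markers was called between lesional and WT skin, and all 6 had negative fold changes with a median log2 of -0.62, beside 0.06 over all genes. Melanocyte markers went the other way, with 5 of 6 higher in lesional skin, beside 23.0% of all genes. *Tyr*, a tyrosinase gene that *Irf4* regulates in melanocytes, rose by a log2 of 6.09 (SE 1.06, adjusted p = 0.00288). For plasma cells, another source of *Irf4*, 3 of 6 markers were higher in lesional skin, *Prdm1*, *Sdc1* and *Mzb1*, beside the same 23.0%. *Jchain*, *Derl3* and *Tnfrsf17* were not called. The 6 genes summed to 589 to 949 CPM in lesional against 239 to 290.0 in WT skin. In the nodes they summed to only 48.0 to 105, so in skin the sum may not measure plasma cells. The part of macrophage, melanocyte and plasma cell content in the *Irf4* levels was not tested.

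**Figure D2:**
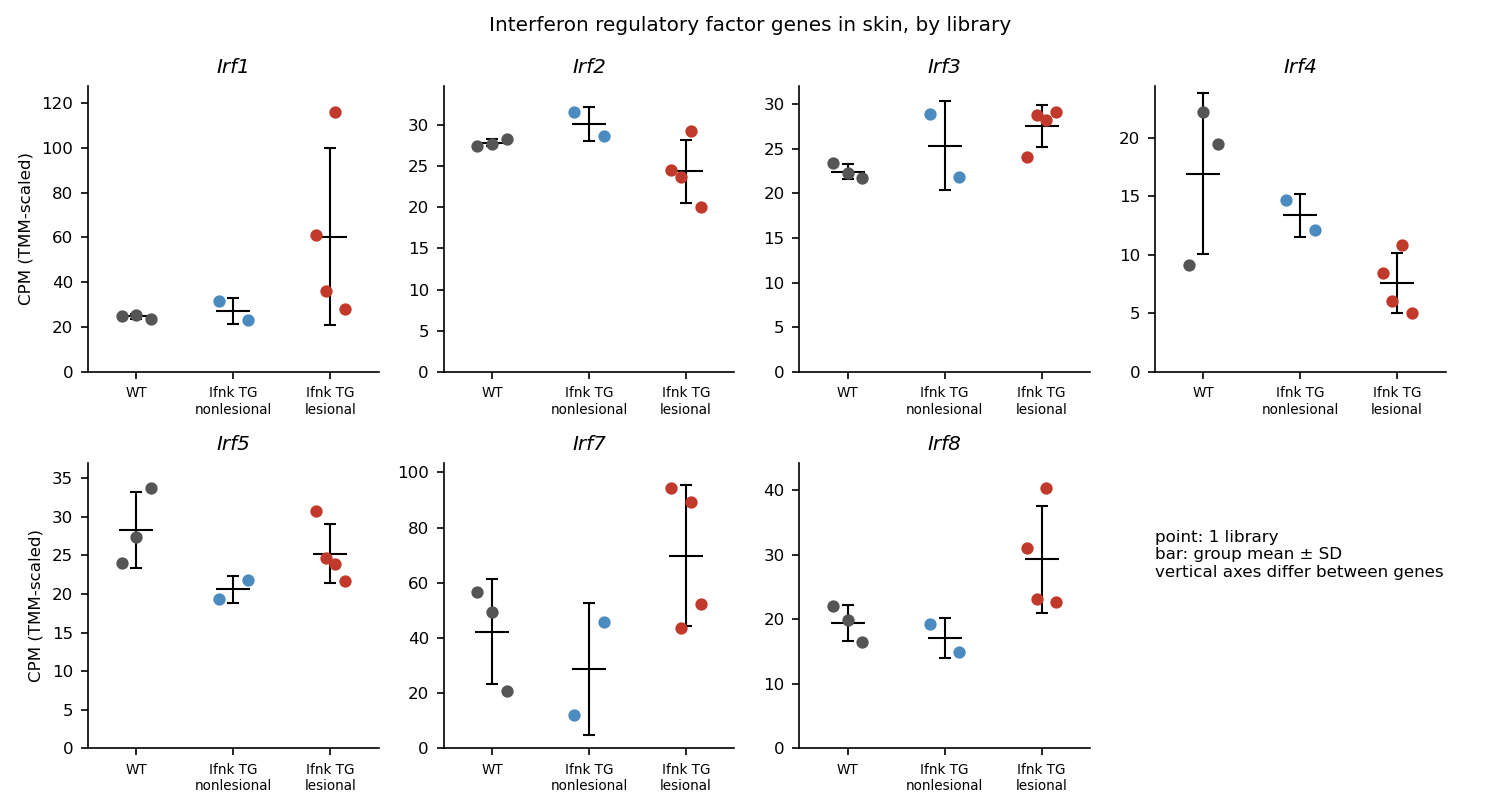
CPM of the 7 genes in skin by group; each point is 1 library, horizontal bars are group means and error bars are SD (n = 3 WT, 2 nonlesional, 4 lesional). *Irf1* and *Irf8* were higher in all 4 lesional libraries than in any WT library, with *Irf1* reaching 116 CPM in lesional sample 6, and *Irf4* was lowest in lesional skin.

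*Irf1* was 2.44 times as high in lesional as in WT skin and just missed the threshold (log2 1.29, SE 0.46, adjusted p = 0.0514). Its WT values were 25.0, 25.5 and 23.7 CPM, its nonlesional values 31.4 and 22.9, and its lesional values 61.2, 36.2, 116 and 28.1. All lesional libraries exceeded all WT libraries, but the lesional libraries spread from 28.1 to 116 while the WT libraries were nearly equal. Groups failed to overlap for 49.4% of tested genes in this comparison, 26.0% with lesional skin higher, and for 3 members, *Irf1*, *Irf3* and *Irf8*, all higher. Without lesional sample 5 or 7, the 2 lowest, *Irf1* was called (adjusted p = 0.0369 and 0.0212), as it was by DESeq2 (0.00859). Sample 6, the highest, was also the lesional library with *Xist* near 0. Without sample 6 the log2 difference was 0.76, and over all libraries left out in turn the adjusted p reached 0.127. With all libraries kept, the alternatives gave log2 values from 1.00 to 1.29 and adjusted p-values up to 0.114. Against nonlesional skin the log2 fold change was 1.15 (SE 0.53, adjusted p = 0.145), and nonlesional sample 2 lay above lesional sample 7.

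Lesional libraries kept 1 order, samples 6, 4, 5 and 7 from the highest, for *Irf1*, *Irf8*, *Ifng* and the *Irf1* class of target genes. The order was not particular to these: *Irf2* (29.3, 24.5, 23.7 and 20.0 CPM) and *Irf4* (10.8, 8.41, 6.09 and 5.03 CPM) kept it too. *Ifng*, the interferon-γ gene, had 203 counts in lesional sample 6, 117 in sample 4, 34 in sample 5 and 5 in sample 7, against at most 12 in the other skin libraries. The summed CPM of 20 *Irf1* class targets was 3575, 2881, 2420 and 1623 in the same order of samples. Of these 20 genes, 10 rose against WT skin and none fell, beside 23.0% of all genes called higher. They were led by *Cxcl9*, a T cell chemokine, with a log2 of 5.95 (SE 0.95, adjusted p = 0.00198), *Socs1*, a feedback inhibitor of JAK signaling, with 1.83 (SE 0.40, adjusted p = 0.00646), and *Psmb8*, an immunoproteasome subunit, with 1.48 (SE 0.37, adjusted p = 0.0130). The median log2 over the list was 1.20, beside 0.06 over all genes.

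*Irf8* showed the same direction with a smaller difference. It stood at 22.0, 19.9 and 16.5 CPM in WT skin, 19.3 and 14.9 in nonlesional skin and 31.0, 23.2, 40.2 and 22.7 in lesional skin. The lesional libraries lay above both other groups without overlap, by 1.51-fold over WT (log2 0.59, SE 0.22, adjusted p = 0.0583) and 1.71-fold over nonlesional skin (log2 0.78, SE 0.26, adjusted p = 0.0558), and neither passed the threshold. Both were called by DESeq2 (adjusted p = 0.0455 and 0.0191), while leaving out 1 library gave log2 values as low as 0.40 and 0.58 and adjusted p-values up to 0.181 and 0.292. Among genes that depend on *Irf8*, 4 of 16 rose and 1 fell against WT skin, a share of risers near the 23.0% of all genes called higher. They were led by *Id2*, a regulator of dendritic cell development (log2 1.22, SE 0.15, adjusted p = 0.000498). Next came *Il12b*, a cytokine subunit gene, with 34, 36, 57 and 62 counts in lesional and at most 1 in WT skin (adjusted p = 0.000969), and *Blnk*, a B cell adaptor gene (log2 0.56, SE 0.15, adjusted p = 0.0163). *Il12b* had at most 3 counts in nonlesional skin. It passed the count filter only because of the lesional libraries, so its direction was largely set by the filter. Markers of conventional dendritic cells 1, a type that requires *Irf8*, were higher in lesional skin for 3 of 6 genes, *Cadm1*, *Itgae* and *Xcr1*, beside the same 23.0%. *Clec9a*, *Batf3* and *Wdfy4* were not called (adjusted p = 0.228, 0.195 and 0.562). The 6 markers had a summed CPM of 55.5 to 72.8 in lesional against 33.2 to 39.4 in WT skin.

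*Irf3*, which is generally made at a constant level, differed little: 23.4, 22.3 and 21.7 CPM in WT, 28.8 and 21.9 in nonlesional and 24.1, 28.8, 28.2 and 29.1 in lesional skin. Its lesional libraries exceeded all WT libraries by 1.23-fold on average (log2 0.30, SE 0.12, adjusted p = 0.0776). *Irf2* stood at 27.5, 27.7 and 28.3 CPM in WT skin, 31.6 and 28.7 in nonlesional skin and 24.5, 23.7, 29.3 and 20.0 in lesional skin, with an adjusted p of 0.256 against WT. *Irf5* stood at 23.99, 27.4 and 33.7 CPM in WT skin, 19.4 and 21.9 in nonlesional skin and 30.7, 24.6, 23.9 and 21.7 in lesional skin (adjusted p = 0.413). For these 3 members the 95% interval of the lesional difference from WT lay within -0.52 and 0.57 on the log2 scale, which bounds the size of any difference at that confidence.

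*Irf7* varied widely between libraries of each skin group. It stood at 56.6, 49.5 and 20.7 CPM in WT skin, 11.9 and 45.8 in nonlesional skin and 94.1, 43.5, 89.1 and 52.3 in lesional skin. Lesional samples 4 and 6 were the highest 2 skin libraries, while samples 5 and 7 lay within the WT range. The log2 fold change was 0.72 against WT (SE 0.53, adjusted p = 0.308) and 1.28 against nonlesional skin (SE 0.63, adjusted p = 0.174), and no alternative called either. Leaving out 1 library moved the former to between 0.39 and 0.99, and the latter to 0.61 without nonlesional sample 2 and 2.56 without nonlesional sample 3. A list of 24 interferon-induced targets of the *Irf7* and ISGF3 class, which leaves out *Irf7* itself, peaked in the same 2 libraries, with a summed CPM of 1334 and 1299 against 526 and 627 in the other lesional, 443 and 479 in nonlesional and 394 to 509 in WT libraries. Of the 24 targets, 9 rose against WT and 7 rose against nonlesional skin, where 23.0% and 13.2% of all genes were called higher, and none fell. *Ccl5*, *Isg15* and *Oas2* led against WT skin, with log2 fold changes of 3.35 (SE 0.55, adjusted p = 0.00174), 2.51 (SE 0.57, adjusted p = 0.00936) and 2.11 (SE 0.53, adjusted p = 0.0128). Markers of plasmacytoid dendritic cells, which make much *Irf7*, moved both ways, with 3 of 6 higher (*Spib*, *Ccr9* and *Klk1*) and *Siglech* lower. They summed to 76.5 to 115 CPM in lesional against 191 to 223 in WT skin. That sum includes *Cox6a2*, whose log2 fold change of -3.37 was not called and lay near the -3.88 of the skeletal muscle gene *Ckm*. It is therefore not a measure of these cells alone, and the part of muscle content in it was not tested. All 24 targets had positive fold changes against nonlesional skin, a group of 2 libraries, with a median log2 of 1.51 beside 0.03 over all genes. Against WT skin *Ifit3* and *Oasl1* had negative fold changes, neither called. These comparisons share the lesional libraries.

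Lesional against nonlesional *Ifnk* TG skin, the comparison within the transgenic line, called 0 of 7 members by edgeR where it called 25.0% of all genes. Per the paper, lesions were sampled where they occurred, and nonlesional skin came from the back and areas like those of the lesions. Body site may therefore differ between these groups, and its part was not tested. *Irf8* alone had an unadjusted p under 0.05 and alone was called by DESeq2. Groups did not overlap for 49.4% of genes and for 2 members, *Irf4* and *Irf8*. Nonlesional *Ifnk* TG skin against WT skin, the comparison for the transgene without a lesion, called 0 of 7 members and 0% of genes by edgeR. There 7.67% of genes, and among the members only *Irf5* (log2 -0.46, SE 0.19, adjusted p = 0.644), had an unadjusted p under 0.05, and DESeq2 called 77 genes and no member. Groups did not overlap for 35.0% of genes and for *Irf2* and *Irf5*. With 2 nonlesional libraries these differences had wide intervals, for *Irf7* from -2.02 to 0.92 on the log2 scale.

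The pathway around the factors was described from fixed lists. Of 25 sensors, adaptors and kinases that activate them, 2 rose and 3 fell in lesional against WT skin, a smaller share than the 43.1% of all genes called. *Mavs*, the mitochondrial adaptor of RNA sensing, fell by 0.66 on the log2 scale (SE 0.08, adjusted p = 0.000401), *Cgas*, the cytosolic DNA sensor, rose by 0.97 (SE 0.17, adjusted p = 0.0023), and *Tbkbp1*, which binds the kinase TBK1, fell by 0.98 (SE 0.24, adjusted p = 0.0110). Of 17 partner factors 6 rose and 1 fell, beside the same 43.1%. *Bcl6*, a repressor that *Irf4* restrains in B cells, fell by 1.17 (SE 0.17, adjusted p = 0.000896), while *Tcf3* rose by 0.64 (SE 0.12, adjusted p = 0.00277) and *Spib*, an ETS partner of *Irf4* and *Irf8*, rose by 2.99 (SE 0.72, adjusted p = 0.0101). Of 17 inhibitors 5 rose and none fell, beside 23.0% of all genes called higher. *Peli1* rose by 0.91 (SE 0.14, adjusted p = 0.00125), *Otud5*, a deubiquitinase gene, by 0.42 (SE 0.09, adjusted p = 0.00523) and *Socs1* as above. Among 21 interferon genes only *Ifnk*, the gene that the transgene adds, and *Ifng* had enough counts to be tested in skin. Both rose (adjusted p = 0.0191 and 0.0356). They passed the count filter only because of the lesional libraries, so the direction was largely set by the filter. Median log2 values of the first 3 lists were 0.14, 0.42 and 0.31 beside 0.06 over all genes.

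Target lists of *Irf4* and *Irf5* were mixed in lesional against WT skin, where 23.0% of all genes were called higher and 20.2% lower. Of 12 tested *Irf4* class targets 6 rose and 3 fell, with *Prdm1*, the plasma cell regulator, up by a log2 of 1.59 (SE 0.18, adjusted p = 0.000381), *Pdcd1lg2*, a checkpoint ligand, up by 3.89 (SE 0.51, adjusted p = 0.000624), and *Bcl6* down. Of 8 tested *Irf5* class targets 4 rose and 1 fell: *Il12b*, shared with the *Irf8* list, rose as above, *Ccl4*, a chemokine gene, had 699, 20, 98 and 44 counts in lesional and at most 1 in WT skin (adjusted p = 0.00834), and *Il12a*, which encodes the partner chain of *Il12b*, fell by 3.22 (SE 0.73, adjusted p = 0.00784). *Ccl4* had at most 4 counts in nonlesional skin. Like *Il12b*, it passed the count filter only because of the lesional libraries, so the direction of both was largely set by the filter. The summed *Irf5* class targets stood at 402 CPM in lesional sample 4, where neutrophil markers were also highest at 572, against 23.8 to 38.8 in the other lesional and at most 13.7 in the other skin libraries. *Irf5* itself was highest of the lesional libraries in sample 4, at 30.7 CPM, though below WT sample 10.

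In WT nodes, the UVB comparison asked what remained 2 weeks after the last exposure. *Irf1* rose 1.45-fold and was the only member called, where 4.98% of tested genes were called and 2.92% were called higher. It stood at 219, 239.9 and 186 CPM without UVB and at 283, 343 and 308 after UVB, with no overlap (log2 0.53, SE 0.11, adjusted p = 0.0303). Leaving out WT sample 1, 3, 8 or 9 took it past the threshold, to adjusted p-values of 0.0636, 0.135, 0.144 and 0.0805. In *Ifnk* TG nodes *Irf1* stood at 237, 199 and 229 CPM without UVB and at 306, 266 and 266 after UVB, again without overlap (log2 0.33, SE 0.11, adjusted p = 0.394). The effect of UVB on *Irf1* did not differ detectably between genotypes (interaction log2 -0.20, 95% interval -0.54 to 0.14, adjusted p = 0.850). Averaged over both genotypes, *Irf1* rose 1.35-fold (log2 0.43, SE 0.08, adjusted p = 0.0132), and it was called with each of the 12 node libraries left out in turn.

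*Irf3* was the other member called in the averaged UVB comparison, where 8.61% of genes were called and 4.81% were called higher. It stood at 60.2, 68.4 and 53.5 CPM in WT nodes without UVB and at 88.2, 80.3 and 89.8 after UVB (log2 0.50, SE 0.14, adjusted p = 0.0569). In *Ifnk* TG nodes it stood at 67.8, 59.9 and 64.4 CPM without UVB and at 97.8, 77.1 and 61.0 after UVB, where sample 12 lay within the unirradiated range (log2 0.30, SE 0.14, adjusted p = 0.545). The averaged fold was 1.32 (log2 0.40, SE 0.10, adjusted p = 0.0308). This call was lost on leaving out any 1 of 9 libraries, samples 1, 3, 4, 5, 6, 7, 8, 9 and 10, with adjusted p-values from 0.0518 to 0.0794.

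**Figure D3:**
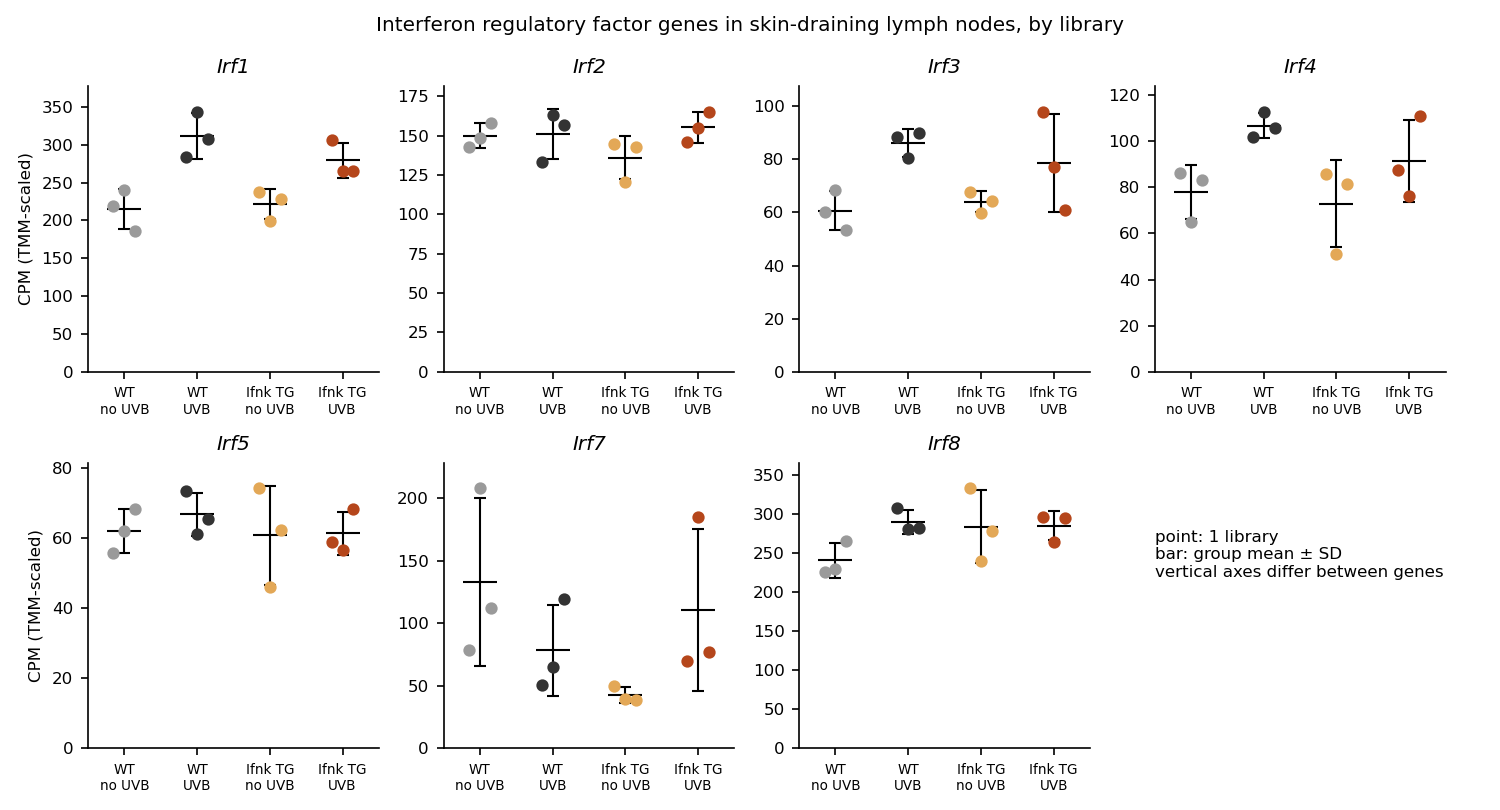
CPM of the 7 genes in SDLNs by genotype and UVB; each point is 1 library, horizontal bars are group means and error bars are SD (n = 3 each). *Irf1* was higher after UVB in both genotypes without overlap, and *Irf7* was lowest in the 3 *Ifnk* TG nodes without UVB, at 38.7 to 49.9 CPM.

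The lymphoid factors *Irf4* and *Irf8* were higher after UVB in WT nodes without passing the test. *Irf4* stood at 86.4, 64.8 and 83.3 CPM without and 102, 113 and 106 after UVB in WT nodes (log2 0.45, SE 0.19, adjusted p = 0.161), and at 86.0, 51.2 and 81.4 without and 87.5, 76.1 and 111 after UVB in *Ifnk* TG nodes (log2 0.33, SE 0.19, adjusted p = 0.619). The averaged comparison gave an adjusted p of 0.0867. *Irf4* was called there by DESeq2 (adjusted p = 0.0321) and with *Xist* as covariate (0.0400), and in WT nodes with the 2 compared groups fitted alone (0.0178). *Ifnk* TG sample 5 had the lowest node values of *Irf4* and *Irf5*, and its summed B cell markers were 1233 CPM against 1847 to 2410 in the other 11 nodes; the part of B cell content in these values was not tested. *Irf8* stood at 226, 229.9 and 266 CPM without and 307, 281 and 282 after UVB in WT nodes (log2 0.27, SE 0.11, adjusted p = 0.154). In *Ifnk* TG nodes *Irf8* stood at 333, 240.0 and 278 CPM without and 297, 264 and 294 after UVB, with a log2 difference of 0.01 (95% interval -0.24 to 0.25). Groups did not overlap for *Irf1*, *Irf3*, *Irf4* and *Irf8* in WT nodes, 4 of 7 members where 37.1% of genes did not overlap and 19.8% were higher without overlap, and for *Irf1*, *Irf2* and *Irf7* in *Ifnk* TG nodes, all higher, where 13.3% of genes did not overlap and 6.23% were higher. In *Ifnk* TG nodes edgeR called 0% of genes after UVB and 0 of 7 members, with 9.32% of genes and 2 members, *Irf1* and *Irf7*, at an unadjusted p under 0.05, and DESeq2 called 137 genes and no member.

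*Irf2* and *Irf5* had the smallest differences after UVB averaged over genotypes, at 0.10 and 0.06 log2 units. *Irf2* stood at 143, 149 and 158 CPM in WT nodes without UVB, 133, 163 and 157 in WT nodes after UVB, 145, 121 and 143 in *Ifnk* TG nodes without UVB and 146, 155 and 165 in *Ifnk* TG nodes after UVB. *Irf5* stood at 55.8, 62.2 and 68.3, at 73.6, 61.4 and 65.7, at 74.3, 46.1 and 62.3 and at 59.1, 56.8 and 68.5 CPM in the same order of groups. Averaged over genotypes, the 95% interval of the UVB difference was -0.05 to 0.25 log2 units for *Irf2* and -0.16 to 0.29 for *Irf5*.

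*Irf7* had the widest spread and opposite directions by genotype. It stood at 78.7, 208 and 112 CPM in WT nodes without UVB and at 50.4, 64.9 and 119.9 after UVB. In *Ifnk* TG nodes it stood at 49.9, 39.9 and 38.7 CPM without UVB and at 69.6, 186 and 77.2 after UVB. Without UVB all 3 *Ifnk* TG nodes lay below all 3 WT nodes, at 0.322 of the WT level (log2 -1.63, SE 0.51, adjusted p = 1), as for 10.5% of genes whose groups did not overlap and 4.93% with the transgenic nodes lower. After UVB all 3 *Ifnk* TG nodes lay above all 3 unirradiated *Ifnk* TG nodes, 2.58-fold (log2 1.37, SE 0.50, adjusted p = 0.463), and the log2 value was 0.77 without sample 11. In WT nodes the difference after UVB was -0.76 (SE 0.49, adjusted p = 0.358), the groups overlapped, and without WT sample 2 it was -0.28. The interaction was 2.13 on the log2 scale (SE 0.70, unadjusted p = 0.0143, adjusted p = 0.848) and was not called. These comparisons share libraries, since the unirradiated groups enter each of them. Over 12 leave-one-out fits the interaction ranged from 1.56 to 2.59, and none was called.

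Interferon targets stood in nearly the same order as *Irf7* across nodes. The 24 targets summed to 699, 1882 and 1117 CPM in WT nodes without UVB, 450.1, 493 and 913 in WT nodes after UVB, 527, 526 and 475 in *Ifnk* TG nodes without UVB and 604, 1619 and 852 in *Ifnk* TG nodes after UVB. In WT nodes *Irf7* and the targets were not called after UVB, and the targets had negative fold changes in 24 of 24. The 4 nodes highest in *Irf7*, samples 2, 11, 9 and 3, were also the 4 highest in the targets. Without UVB all 24 targets had lower fitted levels in *Ifnk* TG than in WT nodes, with a median log2 of -1.75 beside 0.00 over all genes, and none was called. In the interaction all 24 were positive, with a median of 2.61 beside 0.01, and none was called either. Each of these 0 counts stands beside 0% of all genes called by edgeR and 3.39% and 5.45% with an unadjusted p under 0.05. DESeq2 called 2 and 8 genes, and no member. All 24 targets were measured in the same few libraries, so their shared signs are not 24 separate results. WT sample 2 without UVB (1882 CPM) and *Ifnk* TG sample 11 after UVB (1619 CPM) had the highest sums.

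**Figure D4:**
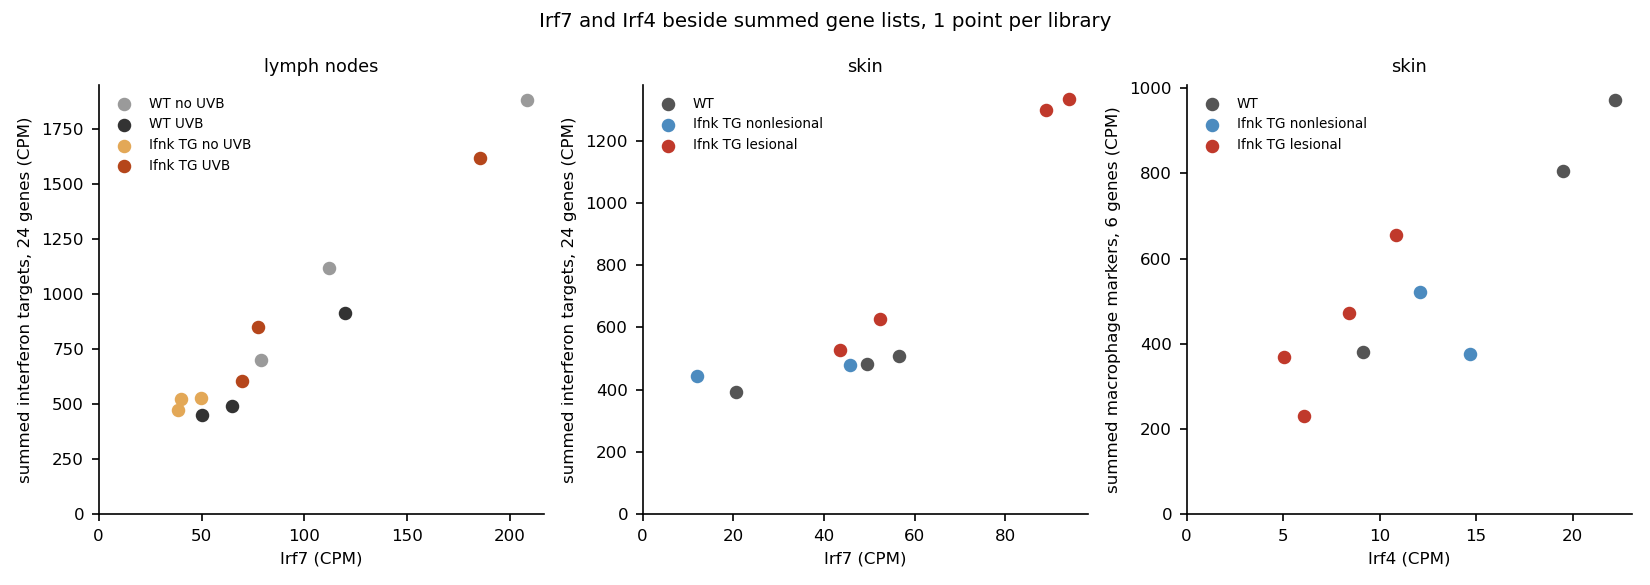
Summed CPM of the 24 interferon targets against *Irf7* CPM in SDLNs (left) and skin (middle), and summed CPM of 6 macrophage markers against *Irf4* CPM in skin (right); each point is 1 library, colored by group. WT node sample 2 and *Ifnk* TG node sample 11 stood apart at the top of both axes, as lesional samples 4 and 6 did in skin.

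Between genotypes no member was called in any SDLN comparison. After UVB 0% of genes were called and 6.99% had an unadjusted p under 0.05; the members' log2 differences ran from -0.22 (*Irf4*, SE 0.19) to 0.50 (*Irf7*, SE 0.49), all 7 overlapped between groups, and 9.71% of genes did not. Averaged over both treatments 0.00618% of genes, 1 gene, was called, and the member furthest from 0 was *Irf7* at -0.57 (SE 0.35, adjusted p = 1). The 95% intervals of this averaged difference were -0.23 to 0.11 for *Irf1*, -0.24 to 0.19 for *Irf3* and -0.07 to 0.28 for *Irf8*.

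**Figure D5:**
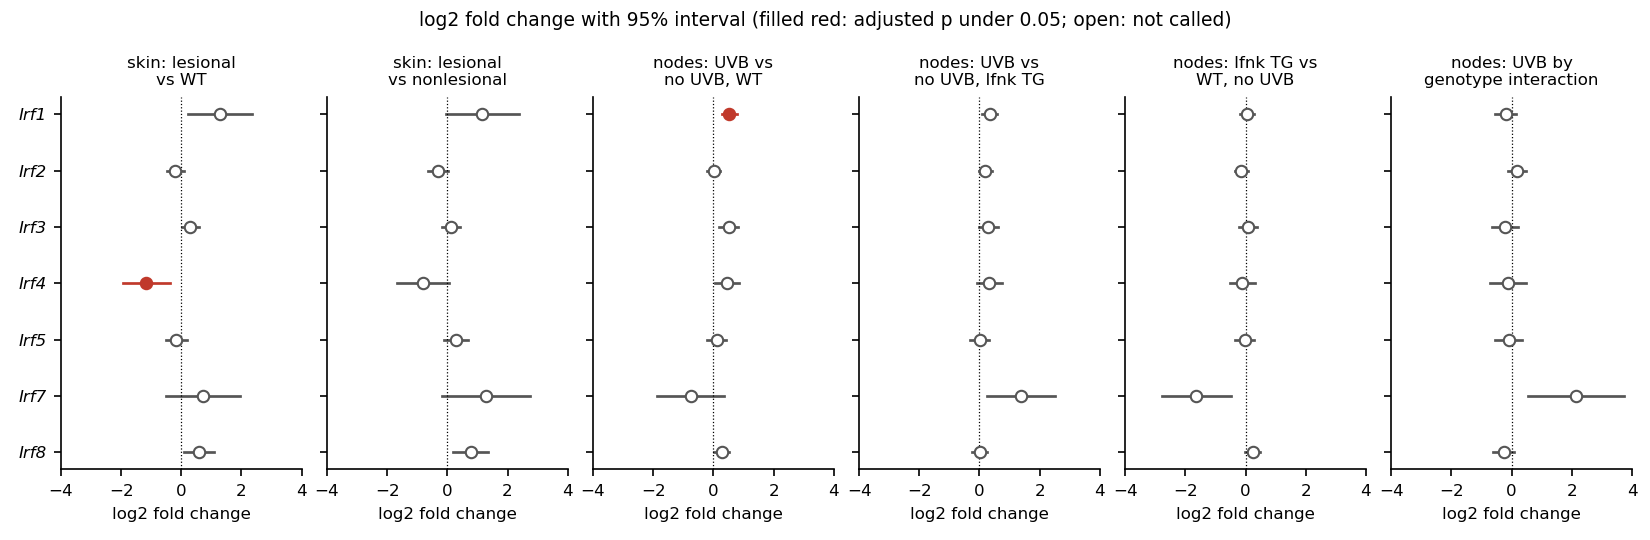
log2 fold change of each member (rows) with its 95% interval in 6 comparisons (panels); filled red points passed an adjusted p of 0.05 and open points did not. The only filled points were *Irf4* in lesional against WT skin, at -1.16, and *Irf1* in WT nodes after UVB, at 0.53, and the *Irf7* intervals were the widest in the nodes.

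The genes around the factors in the averaged UVB comparison of SDLNs were described from the same lists. In that comparison 4.81% of all genes were called higher and 8.61% in either direction, the shares beside which the counts below stand. *Ifng*, the only interferon gene with enough counts to be tested there, rose in the averaged comparison (log2 0.92, SE 0.25, adjusted p = 0.0384), from 28, 17 and 11 counts to 44, 55 and 52 in WT nodes and from 27, 25 and 21 to 31, 24 and 27 in *Ifnk* TG nodes. Of 20 *Irf1* class targets 5 rose and 1 fell. The guanylate-binding protein genes *Gbp3* and *Gbp2* rose by 0.58 (SE 0.08, adjusted p = 0.00538) and 0.64 (SE 0.11, adjusted p = 0.0128), and *Socs1* rose by 0.49 (SE 0.09, adjusted p = 0.0128). The target that fell was *Nos2*, the inducible nitric oxide synthase gene, by 1.82 (SE 0.38, adjusted p = 0.0162), a gene named after its values were seen. The median log2 over the list was 0.10 beside 0.01 over all genes. Among the partners, *Jun* rose by 0.50 (SE 0.10, adjusted p = 0.0148). Of 17 inhibitors *Socs1* and *Otud5* rose, the latter by 0.29 (SE 0.08, adjusted p = 0.0493), and of 25 activators *Tbk1*, a kinase that phosphorylates *Irf3* protein, rose by 0.42 (SE 0.12, adjusted p = 0.0486). Of 24 interferon targets only *Ccl5* was called, and it fell by 0.72 (SE 0.18, adjusted p = 0.0374). Of 12 *Irf4* class targets *Zbtb32* and *Il21*, both of activated lymphocytes, rose by 0.78 (SE 0.16, adjusted p = 0.0171) and 1.71 (SE 0.40, adjusted p = 0.0246). None of 16 *Irf8* class targets and 1 of 7 *Irf5* class targets, *Tnf* (log2 0.81, SE 0.21, adjusted p = 0.0368), was called.

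Blood and stromal content also moved with UVB in the nodes, which had been passed through a cell strainer before lysis. In the averaged comparison, where 8.61% of all genes were called, all 6 red cell genes fell. Their summed CPM was 122 to 304 without and 10.8 to 160 after UVB. Of 6 stromal and endothelial genes 3 fell, with summed CPM of 344 to 455 without and 215 to 313 after UVB, and 3 of 6 fibroblast genes fell. None of the B cell or T cell markers was called, and T cell markers summed to 2326 to 2621 CPM without and 2071 to 2582 after UVB. The part of blood and stromal content in the *Irf1* and *Irf3* differences was not tested. Keratinocyte, melanocyte and hair shaft markers were near 0 in the nodes, at no more than 2.51, 0.936 and 0.0364 summed CPM, and B cell and T cell markers were high.

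Genes with profiles most like each member were sought over all 21 libraries, as the smallest root-mean-square difference in log2 CPM centered within each tissue, among 12857 genes tested in both. *Irf7* was nearest to *Rtp4* (0.328) and *Zbp1* (0.380), both in the list of 24 interferon targets, where its own root-mean-square spread was 0.824. *Irf1* (own spread 0.520) was nearest to *Samhd1* (0.235) and *Sp140* (0.236), and *Irf8* (0.298) to *Bak1* (0.190) and *Vav1* (0.192). *Irf4* (0.501) was nearest to *Tgfbr2* (0.253) and *Ecm1* (0.282), and *Irf5* (0.208) to *Plekho1* (0.153) and *Galnt12* (0.157). *Irf3* (0.230) was nearest to *Tars2* (0.105) and *Rexo4* (0.106), and *Irf2*, with the smallest spread (0.154), to *Nub1* (0.0799) and *Ablim1* (0.0845). The libraries share depth and tissue makeup with these genes, and likeness here is a description.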

How the data were processed

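RNA of mouse skin and inguinal lymph nodes was sequenced as poly(A) libraries with 151-base paired reads. Per the labels, reads were trimmed with cutadapt 4.8, checked with FastQC 0.11.8 and MultiQC 1.20, aligned with STAR 2.7.8a to GRCm38 and counted with RSEM 1.3.3. The authors deposited RSEM expected counts per gene, here whole numbers, in 1 table per tissue, with no normalization. From these, each tissue was fitted separately with edgeR 4.0.16 in R 4.3.3 (TMM scaling, filterByExpr by group with a minimum count of 10, robust quasi-likelihood F-test, 1 mean per group), and p-values were adjusted by Benjamini-Hochberg over all tested genes with a threshold of 0.05. DESeq2 1.42.0 was an alternative. CPM is TMM-scaled within a tissue, and levels were not tested across tissues. Intervals are 95%. The script was tested on simulated data. The 10 comparisons, 3 in skin and 7 in nodes, were those the groups imply. Replicate pairs within groups differed by more than sampling noise (chi-square per gene at least 16.9 over 22 pairs), so all 21 libraries were kept. 4 reporter rows held 0 counts. Gene positions and lengths came from GENCODE M21. All members were named, and a list gene was named with values only as 1 of the 3 with the smallest adjusted p among those called in that list, or as a cell type marker, with *Nos2* as the 1 exception, chosen after its values were seen. The members and lists were chosen with earlier results of these data known. Alternatives were other scaling and filters, DESeq2, an *Xist* covariate, the compared groups alone, a threshold of 0.01 and leaving out each library. A result for 1 list gene is not reported here.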

Additional observations from a re-analysis of the deposited data

Results flagged for a closer look

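The effect of UVB on *Irf7* in SDLNs went in opposite directions in the 2 genotypes: all 3 irradiated WT nodes lay below the mean of the unirradiated WT nodes, and all 3 irradiated *Ifnk* TG nodes lay above the mean of the unirradiated *Ifnk* TG nodes. The difference between the effects was 2.13 on the log2 scale (SE 0.70, adjusted p = 0.848, edgeR), so the test of the difference itself did not pass. WT sample 2 without UVB and *Ifnk* TG sample 11 after UVB were the highest in their groups, and the interaction was 1.65 without the former and 1.56 without the latter. The lower WT values rest largely on sample 2: irradiated WT sample 9, at 119.9 CPM, lay above the other unirradiated WT nodes at 78.7 and 112 CPM, and without sample 2 the WT difference was -0.28 in place of -0.76. No lesional skin library stood far enough from the other 3 in any member to be set apart by Dixon's test.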

How the results depend on the processing

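No paired analysis was possible because sample numbers run on across the groups of a tissue and none is shared by the groups compared. In lesional against WT skin, where 1 member was called, 0 were called at an adjusted p under 0.01, 3 by DESeq2 and 2 with at least 10 counts in every library, and 0 to 2 with 1 library left out. In lesional against nonlesional skin, where 0 were called, DESeq2 called 1, and leaving out 1 library gave 0 to 1. For UVB in WT nodes, where 1 was called, 0 were called at 0.01 and with *Xist* as covariate (background counts in nodes), 2 by DESeq2 and 3 with the compared groups alone, and 0 to 1 with 1 library left out. For UVB averaged over genotypes, where 2 were called, 3 were called by DESeq2 and with *Xist* as covariate, *Irf4* being added, 0 at 0.01, and 1 to 2 with 1 library left out. The causes were not tested.

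Counts over all genes that moved by more than 1.5 times were as follows. At an adjusted p under 0.01 they fell from 8237 to 4823 in lesional against WT skin, from 4782 to 1872 in lesional against nonlesional skin, from 805 to 1 for UVB in WT nodes, from 1393 to 80 for UVB averaged and from 1 to 0 for genotype averaged. DESeq2 called 1888 for UVB in WT nodes, 2440 for UVB averaged, 13 for genotype averaged, 77 in nonlesional against WT skin, 137 for UVB in *Ifnk* TG nodes, and 2 before UVB, 19 after UVB and 8 for the interaction, the last 5 beside 0 by edgeR. The compared groups alone gave 3156, 1 and 2431 in lesional against nonlesional skin, nonlesional against WT skin and UVB in WT nodes, the *Xist* covariate 171 for UVB in WT nodes and 0 for genotype averaged, and no filter 1 between genotypes after UVB. With 1 library left out the counts ran from 1182 to 5187 in lesional against nonlesional skin, 0 to 493 for UVB in WT nodes, 0 to 236 for UVB in *Ifnk* TG nodes, 373 to 3790 for UVB averaged, 0 to 3 for genotype averaged, 0 to 2 between genotypes after UVB, and 0 to 1 before UVB and for the interaction.

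Of 1015 recomputed member values 40 changed sign, all of log2 values not called and at most 0.552 in size. With all libraries kept these were, with *Xist* as covariate, *Irf1* in nonlesional against WT skin (-0.0691), *Irf2* after UVB in WT nodes (-0.0150), *Irf8* between genotypes after UVB (0.0491) and the interactions of *Irf4* (0.0857) and *Irf5* (0.0112), and, with the compared groups alone, *Irf8* after UVB in *Ifnk* TG nodes (-0.00713). With 1 library left out, lesional against nonlesional skin gave -0.0522 to 0.334 for *Irf3*. Nonlesional against WT skin gave -0.111 to 0.316 for *Irf1*, -0.037 to 0.335 for *Irf3* and -1.85 to 0.115 for *Irf7*. UVB gave -0.0473 to 0.0959 for *Irf2* in WT nodes, and -0.156 to 0.178 for *Irf5* and -0.105 to 0.133 for *Irf8* in *Ifnk* TG nodes. Genotype without UVB gave -0.0525 to 0.128 for *Irf1*, -0.00696 to 0.172 for *Irf3*, -0.244 to 0.0925 for *Irf4* and -0.203 to 0.131 for *Irf5*. Genotype after UVB gave -0.0444 to 0.1045 for *Irf2*, -0.297 to 0.0233 for *Irf3*, -0.081 to 0.955 for *Irf7* and -0.0487 to 0.0412 for *Irf8*. The interaction gave -0.2985 to 0.0366 for *Irf4* and -0.238 to 0.0946 for *Irf5*. UVB averaged gave -0.0371 to 0.131 for *Irf5* and -0.00426 to 0.545 for *Irf7*, and genotype averaged -0.112 to 0.0487 for *Irf3* and -0.156 to 0.012 for *Irf5*.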
